A study of Mus musculus with 6 samples.

Results

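Type I interferon response genes are genes that cells switch on when interferon alpha or beta binds its receptor, and 36 of them were chosen by name for description across 6 microarrays. The chosen genes were matched to the probes of an Illumina mouse BeadChip by gene symbol. A named probe was found for 33 of the 36, and 28 were tested because a probe was detected on 3 or more of the 6 arrays, at a detection p-value under 0.05. The brightest such probe stood for each gene. Of the remaining genes, Ifi44, Dtx3l and Herc6 had no probe with that name and were not analysed here. Ifit1, Ifih1 and Xaf1 were detected on 0 arrays, and Oas1a and Oas3 on 1 array each, the surrounding sample of mouse 1. The tested genes are therefore those bright enough to be read, not the whole set, and 4 of them (Mx1, Mx2, Parp9 and Rtp4) were detected on fewer than 6 arrays. Mx1, Mx2 and Parp9 were detected in all 3 surrounding samples but only 1 polyp sample, that of mouse 1, so that they passed through the group in which they were higher.

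The RNA came from CD45-enriched cells of the cecum of 3 HBUS mice, CD45 being a surface protein of leukocytes. HBUS is the only strain or allele the labels give, and it is shared by both groups; published descriptions of the strain give it 2 transgenes directed to the intestinal epithelium, the growth factor HB-EGF and the cytomegalovirus chemokine receptor US28. Age, sex and treatment are not given in the sources used here. From each mouse 1 sample was taken from a serrated polyp, an epithelial outgrowth with a saw-toothed surface, and 1 from normal-looking distal cecum around it, so that 3 polyp and 3 surrounding samples stand in 3 pairs.

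Type I interferons signal through the receptor chains Ifnar1 and Ifnar2 and the kinases Jak1 and Tyk2 to a transcription factor complex that includes Stat2 and Irf9. That complex binds a DNA element called ISRE in the promoters of its targets. The targets include sensors of foreign RNA, proteins that block viral translation or budding, the ubiquitin-like protein Isg15, and Usp18, which both removes Isg15 and damps the receptor. In the gut, leukocytes and epithelial cells carry a low tonic level of this response, fed in part by the microbiota.

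The promoters of 5 members are shown because the element through which interferon acts can be read in them. They are those of Isg15, Rsad2 and Bst2, which fell in polyp samples, of Ifit3, whose level differed between mice, and of Eif2ak2, whose difference between polyp and surrounding was the closest to 0. They were picked after the values were seen. Each runs from 250 bases before to 50 bases after the start of a RefSeq transcript, on GRCm38.p6, 5′ to 3′ along the gene. Capitals mark the ISRE core, searched on both strands as a pair of GAAA with any 2 bases between them, and overlapping matches are run together.
Isg15, chr4:156200769-156201068, minus strand: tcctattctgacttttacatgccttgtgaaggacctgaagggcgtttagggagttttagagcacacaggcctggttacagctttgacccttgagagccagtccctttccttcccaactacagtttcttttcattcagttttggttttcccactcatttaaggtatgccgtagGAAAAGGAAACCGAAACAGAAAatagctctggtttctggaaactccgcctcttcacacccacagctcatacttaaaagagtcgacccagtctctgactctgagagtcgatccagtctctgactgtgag
Rsad2, chr12:26456403-26456702, minus strand: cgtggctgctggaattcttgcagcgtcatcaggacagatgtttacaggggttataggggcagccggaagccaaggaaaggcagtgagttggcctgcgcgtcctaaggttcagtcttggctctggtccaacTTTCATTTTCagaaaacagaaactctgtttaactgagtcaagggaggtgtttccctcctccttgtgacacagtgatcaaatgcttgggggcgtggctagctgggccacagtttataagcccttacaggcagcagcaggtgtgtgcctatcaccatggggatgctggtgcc
Bst2, chr8:71537423-71537722, minus strand: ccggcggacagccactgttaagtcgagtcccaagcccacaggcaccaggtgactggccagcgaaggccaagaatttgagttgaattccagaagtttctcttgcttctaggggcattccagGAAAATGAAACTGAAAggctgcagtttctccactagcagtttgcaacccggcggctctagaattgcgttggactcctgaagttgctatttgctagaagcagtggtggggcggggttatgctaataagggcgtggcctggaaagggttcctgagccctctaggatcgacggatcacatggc
Ifit3, chr19:34583279-34583578, plus strand: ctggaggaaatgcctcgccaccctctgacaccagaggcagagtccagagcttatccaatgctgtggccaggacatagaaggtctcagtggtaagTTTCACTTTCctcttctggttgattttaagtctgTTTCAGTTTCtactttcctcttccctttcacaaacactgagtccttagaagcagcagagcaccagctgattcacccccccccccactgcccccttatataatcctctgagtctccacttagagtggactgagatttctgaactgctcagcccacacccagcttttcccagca
Eif2ak2, chr17:78882523-78882822, minus strand: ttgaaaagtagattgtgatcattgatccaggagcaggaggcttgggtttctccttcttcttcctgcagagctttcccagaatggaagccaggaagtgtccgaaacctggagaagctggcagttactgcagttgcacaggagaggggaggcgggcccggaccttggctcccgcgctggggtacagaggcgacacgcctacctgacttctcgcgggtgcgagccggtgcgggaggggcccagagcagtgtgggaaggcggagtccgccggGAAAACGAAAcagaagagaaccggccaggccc
Isg15 holds 3 overlapping matches, centred at -73, -67 and -61 from the start site, and Bst2 holds 2 overlapping ones at -125 and -119. Rsad2 has a match at -115 and Ifit3 has separate matches at -151 and -117, all 3 on the opposite strand, while the match of Eif2ak2 lies after the start, at 23. RefSeq promoter windows were at hand for 26 of the 36 members, matched by symbol, and 12 of the 26 hold the core in at least 1 window, against 3.99% of the 27025 genes with a window. Of 4 members that fell, 3 hold it; Ifit2 has 2 windows and the core is in neither. The element of the interferon gamma pathway, GAS, searched as TTCNNNGAA, which is its own reverse complement in these letters, is in the windows of 6 of the 26 members and of 9.55% of all genes. A match describes these letters in this window, not a working site.

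The arrays were alike in depth of signal: median intensities lay between 97.3 and 109.3, and between 49.3% and 53.7% of the 25697 probes were detected, both lowest in the polyp sample of mouse 3. Ptprc, the gene of CD45, fell in polyps by 0.99 ± 0.11 (log2 difference and SE over 3 pairs, adjusted p = 0.0052 in limma), with no detection in the polyp of mouse 3. The mean log2 level of 13 tested epithelial markers was between 10.5 and 10.9 on all arrays, so that the samples were not of leukocytes alone. In such mixed samples, fewer cells of a type and less RNA per cell cannot be told apart. Nothing in the labels says how polyps of a mouse were pooled or how pure the cells were, and 3 arrays a group limit the precision of every value.

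The paired design sets each polyp against the cecum around it in the same animal. All differences are polyp minus surrounding in normalised log2 intensity, with the standard error (SE) of a limma fit with mouse as a block over 3 pairs, and p-values are two-sided and Benjamini-Hochberg adjusted over 13409 tested probes. In the polyp samples 4 of the 28 tested interferon genes fell, namely Isg15, Rsad2, Ifit2 and Bst2, and 0 rose. Among all tested probes, 5.81% fell and 4.62% rose, 10.4% in all. All 28 fitted differences were below 0, from -1.47 for Isg15 to -0.03 for Eif2ak2, with a median of -0.65, where the median over 9246 tested genes was 0.02. At an unadjusted p under 0.05 in limma, 18 of the 28 were lower, against 14.5% of all tested genes. In every mouse the polyp sample was the lower one for 18 of the 28, against 24.2% of all tested genes. Without Mx1, Mx2 and Parp9, which passed the filter only through the surrounding samples, it was so for 15 of 25, 15 were lower at an unadjusted p under 0.05, and the median was -0.67. The 15 that were lower in every mouse include Rtp4, at -0.01 in mouse 3, where neither of its samples was detected. With no background subtraction, in the authors' processed values, the median of the 28 was -0.36, and without mouse 1 it was -0.33.

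**Figure D1:**
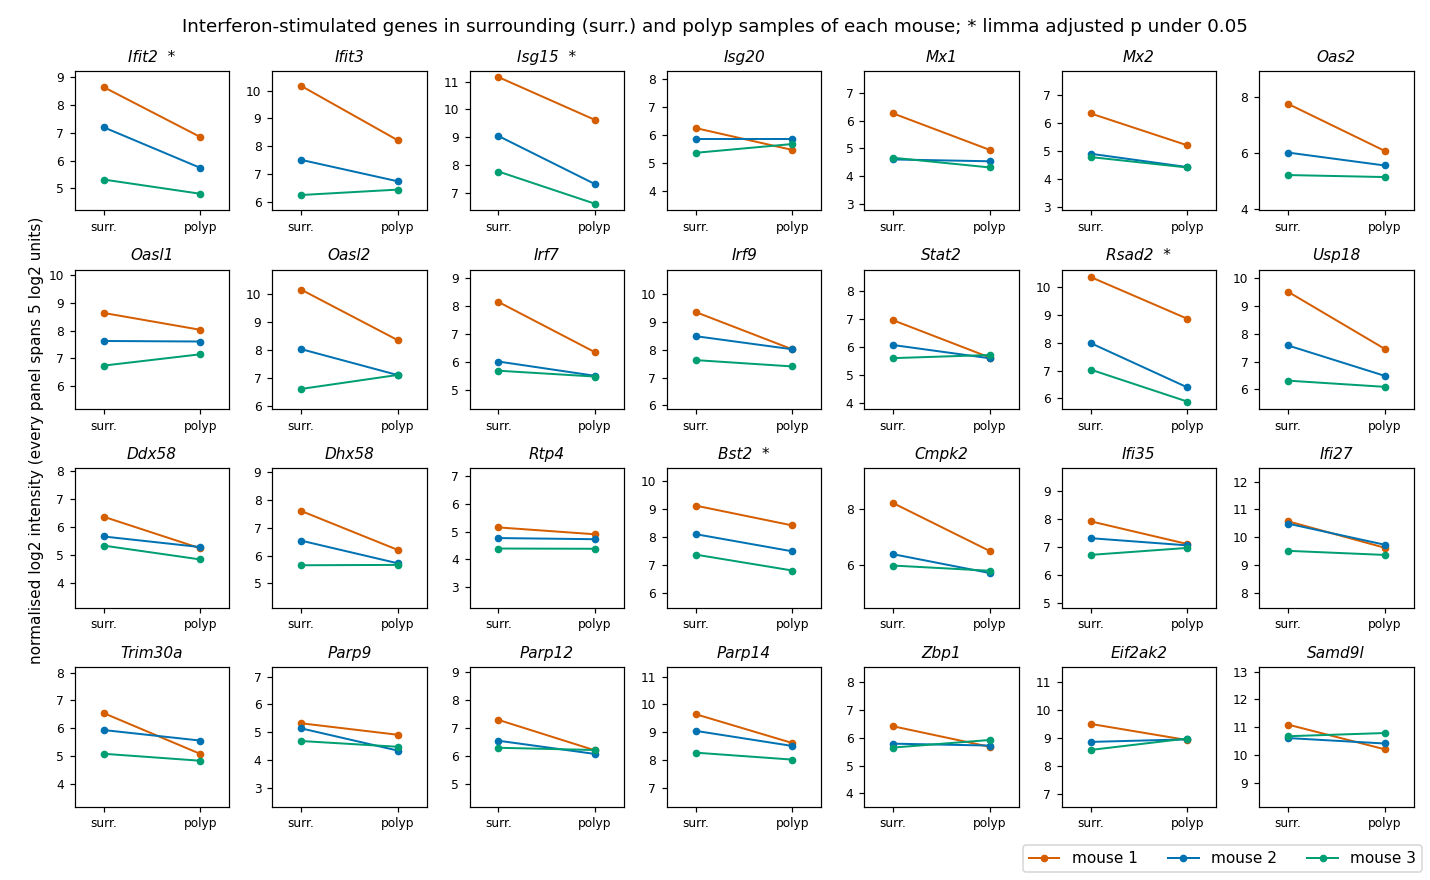
Normalised log2 intensity of the 28 tested interferon genes in the surrounding sample (left) and the polyp sample (right) of each mouse, 1 line per mouse; every panel spans 5 log2 units and a star marks a limma adjusted p under 0.05. The lines of Isg15, Rsad2 and Bst2 run nearly parallel, whereas for genes such as Oasl2 and Ifit3 the line of mouse 1 falls and that of mouse 3 does not.

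Isg15 encodes a ubiquitin-like protein that is attached to other proteins and also secreted. Polyp samples of mice 1, 2 and 3 read 9.62, 7.32 and 6.61 in log2 intensity, against 11.16, 9.05 and 7.77 around the polyp. On the scanner's linear scale these were intensities of 817.8, 269.9 and 149.1 against 2300.2, 619.3 and 320.6. The groups overlap, since the polyp sample of mouse 1 was above the surrounding samples of the other mice, but within each mouse the polyp sample was lower. The differences of -1.54, -1.73 and -1.16 give a 2.78-fold lower level in polyps (-1.47 ± 0.13 log2, SE, n = 3 pairs, limma adjusted p = 0.00344).

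Rsad2 encodes viperin, a radical SAM enzyme that makes a chain-terminating nucleotide against viral polymerases. Polyp samples read 8.86, 6.40 and 5.89 in log2 intensity and surrounding samples 10.36, 7.99 and 7.04 for mice 1, 2 and 3. As for Isg15, the polyp sample of mouse 1 was above the surrounding samples of mice 2 and 3, and within every mouse the polyp was the lower. The fall was 2.66-fold (-1.41 ± 0.12 log2, SE, n = 3 pairs, limma adjusted p = 0.00299). Rsad2 lies beside Cmpk2, a mitochondrial nucleotide kinase that makes the substrate of viperin, which read 6.49, 5.70 and 5.78 in polyp and 8.20, 6.37 and 5.96 in surrounding samples (-0.86 ± 0.27, limma adjusted p = 0.11) and thus missed the threshold.

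Bst2 encodes tetherin, which holds budding virus particles on the cell surface and marks plasmacytoid dendritic cells in resting mice. Polyp samples read 8.41, 7.48 and 6.79 in log2 intensity and surrounding samples 9.12, 8.09 and 7.36. Mouse 1 was again the highest in both, so that the groups overlap. The 3 differences, -0.71, -0.62 and -0.57, were nearly equal, and their mean of -0.63 ± 0.09 passed the test (SE, n = 3 pairs, limma adjusted p = 0.0129). The members that had a mean difference at least as large and did not pass had SEs of 0.16 or more. The Bst2 call was lost without mouse 2 (limma adjusted p = 0.0842) and without mouse 3 (0.0551), although the differences, -0.64 and -0.66, were as large.

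Ifit2 encodes a tetratricopeptide protein that restricts viral translation. Its brightest probe read 6.84, 5.74 and 4.81 in the polyp samples and 8.63, 7.19 and 5.32 in the surrounding samples on the log2 scale. The difference shrank from -1.79 in mouse 1 to -0.51 in mouse 3, with a mean of -1.25 ± 0.24 (SE, n = 3 pairs, limma adjusted p = 0.0273). A second, dimmer Ifit2 probe differed by -1.69, -0.57 and 0.03 in the 3 mice and did not pass (-0.74 ± 0.30, limma adjusted p = 0.18). The call was also lost in the authors' processed values, where the difference was -0.74 (limma adjusted p = 0.0857), and without mouse 2 (0.115).

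The remaining 24 tested members did not pass, with limma adjusted p from 0.0529 to 0.948. For 6 of them it lay under 0.1, and 16 had differences of -0.5 or lower. In a model without mouse, 0 of the 28 passed in limma and 1 had an unadjusted p under 0.05, because the spread between mice then enters the error; 0.716% of all tested probes fell in that fit. Of the 28, only Ddx58 and Parp12 had all polyp samples below all surrounding samples, while 8.64% of all tested probes did, and neither passed the paired test.

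**Figure D2:**
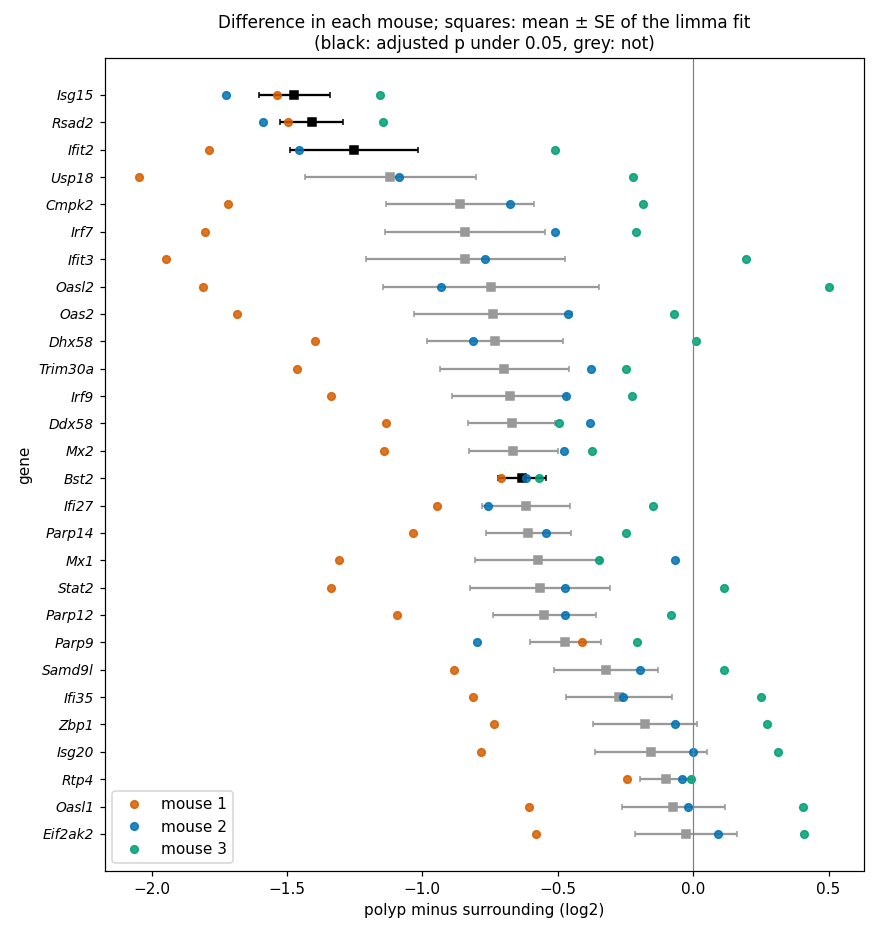
Difference between polyp and surrounding (log2) of each tested interferon gene, with 1 coloured point per mouse and a square for the mean of the limma fit with its SE (black where the adjusted p was under 0.05). The points of mouse 1 lie furthest to the left for most genes, and those of mouse 3 lie nearest to 0 or above it.

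Among the transcription factors of the pathway, Irf7, the amplifier of interferon alpha production, read 6.35, 5.51 and 5.48 in polyp and 8.16, 6.02 and 5.69 in surrounding samples of mice 1, 2 and 3. Its surrounding sample of mouse 1 stood apart from the other 5 arrays. The mean difference was -0.84 ± 0.29 (limma adjusted p = 0.133). Irf9 differed by -0.68 ± 0.21 (0.106) and Stat2 by -0.57 ± 0.26 (0.218), so that 0 of these 3 passed in limma.

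Usp18, the protease that removes Isg15 and restrains the receptor, had the lowest mean difference of the members that did not pass, -1.12 ± 0.32 (SE, n = 3 pairs, limma adjusted p = 0.082). It read 7.46, 6.49 and 6.09 in polyp and 9.51, 7.58 and 6.32 in surrounding samples. The polyp sample was lower in each mouse, but by -2.05 in mouse 1 and only -0.22 in mouse 3. Other Usp18 probes gave -1.19 and -1.07, so that all 3 agreed in sign.

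Of the sensors of foreign nucleic acid, Ddx58, the gene of RIG-I, was lower in each mouse by -1.13, -0.38 and -0.50, with a limma adjusted p of 0.0529. Dhx58, the gene of the related protein LGP2, differed by -1.40, -0.81 and 0.01, and did not pass (limma adjusted p = 0.128). Zbp1, a sensor of Z-form nucleic acid that can start necroptosis, was lower in the polyp sample of mouse 1 by -0.74 and higher in that of mouse 3 by 0.27. Thus 0 of 3 tested sensors passed.

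The oligoadenylate synthetase family holds enzymes whose product activates RNase L, and proteins that resemble them, and 0 of 3 tested members passed. Oas2 differed by -0.74 ± 0.29 (limma adjusted p = 0.17), with differences of -1.68, -0.46 and -0.07 in mice 1, 2 and 3, and by -0.27 without mouse 1. Oasl2 had the widest spread of all members: its polyp sample was lower by -1.81 in mouse 1 and by -0.93 in mouse 2, and higher by 0.50 in mouse 3. Oasl1, which represses Irf7 translation in mice, differed by -0.07, and its 3 probes did not share a sign. Of the 7 members with several tested probes it was the only such gene.

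Ifit3 read 8.22, 6.75 and 6.45 in polyp and 10.17, 7.52 and 6.25 in surrounding samples. Its differences of -1.95, -0.77 and 0.19 gave a mean of -0.84 ± 0.37 (SE, n = 3 pairs, limma adjusted p = 0.204), and its other 2 probes gave -0.82 and -0.72. Ifit3 has a near-identical neighbour in the mouse, Ifit3b, and which of the pair these probes read cannot be told apart here.

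Mx1 and Mx2, dynamin-like GTPases against viruses, differed by -0.57 ± 0.23 (limma adjusted p = 0.178) and -0.66 ± 0.16 (0.057), with the polyp samples of mice 2 and 3 not detected. Trim30a, a ubiquitin ligase that dampens Toll-like receptor signalling in mice, differed by -0.70 ± 0.24 (limma adjusted p = 0.128). The PARP family members Parp14, Parp12 and Parp9, which attach ADP-ribose or, in the case of Parp9, act with the ligase Dtx3l, differed by -0.61, -0.55 and -0.47, with limma adjusted p from 0.0661 to 0.131. Parp14 and Parp12 were lower in all 3 mice, while Parp9 was not detected in the polyp samples of mice 2 and 3, so that its values there are at background. Ifi27, a mitochondrial interferon-inducible protein, differed by -0.62 ± 0.16 (0.0704).

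Other members had smaller differences. Eif2ak2, the kinase PKR that halts translation on sensing double-stranded RNA, read 8.92, 8.95 and 8.98 in the polyp samples and 9.50, 8.85 and 8.57 in the surrounding samples. The 3 polyp samples were thus nearly equal while the surrounding samples were not, and the mean difference was -0.03 ± 0.19 (limma adjusted p = 0.948). Samd9l, an antiviral translation inhibitor, read 10.21, 10.42 and 10.79 in polyp and 11.10, 10.61 and 10.68 in surrounding samples (-0.32 ± 0.19, 0.332). Ifi35 (-0.27), Isg20 (-0.16), an exonuclease, and Rtp4 (-0.10), a chaperone of receptors, had limma adjusted p of 0.421, 0.671 and 0.557.

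The size of the difference was not the same in the 3 animals. The median over the 28 genes was -1.22 in mouse 1, -0.48 in mouse 2 and -0.17 in mouse 3, where the medians over all 9246 tested genes were 0.00, 0.02 and 0.02. In mouse 1 all 28 were lower in the polyp, in mouse 2 26 were, and in mouse 3 18 were lower and 10 higher. For 23 of the 28 the difference was most negative in mouse 1 and least in mouse 3, against 21.4% of all tested probes. The 5 others were Isg15, Mx1, Rsad2, Ddx58 and Parp9. Among the 23, Mx2 was not detected in the polyps of mice 2 and 3, nor Rtp4 in either sample of mouse 3. Their differences there rest on values at background. In mouse 3, 4 genes had a difference below -0.5, and they are the 4 that passed the test. The pair of mouse 3 is part of that test, so the match is not independent of it. It also depends on the cut, since Ddx58, at -0.496 in mouse 3, did not pass. Each mouse gives 1 pair, so that a difference between mice in the effect itself could not be tested.

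The genes also differed between mice in their level. In limma's F-test of the mouse terms in the same fit, 6 of the 28 passed, namely Rsad2, Isg15, Bst2, Ifit2, Mx2 and Ifit3, with adjusted p from 0.0086 to 0.0466, against 4.90% of all tested probes. Their levels were highest in mouse 1: the mean over its 2 samples was 9.61 for Rsad2, against 7.19 in mouse 2 and 6.46 in mouse 3. Mouse 1 had the highest level of the 3 animals both in polyp and in surrounding samples for 18 of the 28, against 15.6% of all tested genes. The 18 include Mx1, Mx2 and Parp9, not detected in the polyps of mice 2 and 3, and Rtp4, not detected in mouse 3. Part of their values are therefore at background, and Mx2 is also among the 6 that passed the F-test. With only probes detected on all 6 arrays, 7 of 24 members passed it. In surrounding samples mouse 1 exceeded mouse 3 by a median of 1.58 over the 28 genes, and in polyp samples by 0.60, with -0.06 and -0.08 over all tested genes. Both samples of each mouse were neighbours on the chip, as their array positions show, so that mouse and place on the chip cannot be told apart.

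A gene that stood higher in mouse 1 than in mouse 3 tended to be the one with the larger difference in mouse 2. Across the 28 genes, the difference between polyp and surrounding in mouse 2 correlated with the difference between the surrounding samples of mice 1 and 3 (Pearson's r = -0.73, Spearman's rho = -0.65) and with that between their polyp samples (r = -0.82, rho = -0.66). The arrays on the 2 axes are different ones, but the genes are not independent of each other and all arrays shared 1 chip and 1 normalisation. Over all 9246 tested genes the same relations were -0.35 and -0.40. Between animals, the polyp minus surrounding differences of the 28 genes correlated by r = 0.58 for mice 1 and 2. For mice 2 and 3 the value was 0.68, and for mice 1 and 3 only 0.26. Isg15, Rsad2 and Ifit2 had the lowest differences in mouse 2 and, in polyp samples, the highest excess of mouse 1 over mouse 3, while in surrounding samples Ifit3 and Oasl2 exceeded them.

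**Figure D3:**
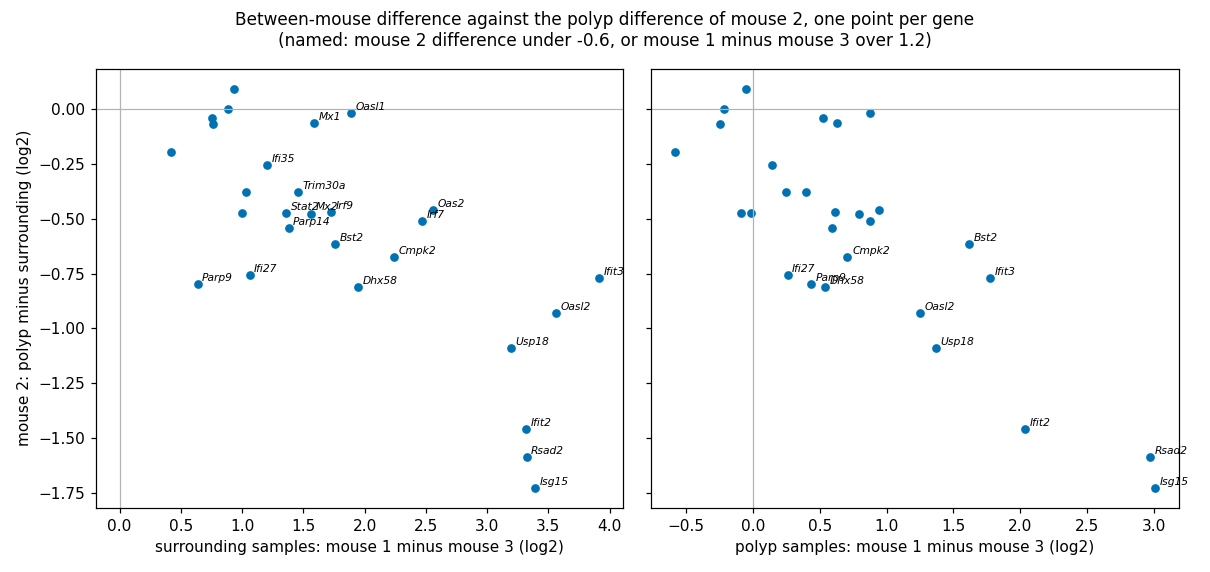
For each of the 28 genes, the difference between mouse 1 and mouse 3 (log2, horizontal axis, left in surrounding and right in polyp samples) and the polyp minus surrounding difference of mouse 2 (log2, vertical axis), 1 point per gene. Isg15, Rsad2 and Ifit2 are the lowest points of both panels, with mouse 2 differences of -1.73, -1.59 and -1.46.

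Of the ligands and receptors of the pathway, 3 of 17 listed genes could be tested and 0 passed in limma, nor did any have an unadjusted p under 0.05. Ifnar2, a receptor chain, differed by 0.00 ± 0.10 (limma adjusted p = 0.983), while Ifnar1 was detected on 0 arrays. Ifnb1, the gene of interferon beta, was detected in 3 surrounding samples and 1 polyp sample and was higher in the polyp of mouse 1 by 0.43. In mice 2 and 3 its polyp samples were at background and the surrounding samples were not, so that no exact difference can be given there, and the probe did not pass (limma adjusted p = 0.254). Ifna6 differed by 0.07, and of the 13 other interferon alpha, epsilon, kappa and zeta genes with a probe, 11 were detected on 0 arrays.

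Of 12 tested genes of receptor signalling and its brakes, 1 fell: Uba7, the activating enzyme that loads Isg15, at -0.74 ± 0.17 (SE, n = 3 pairs, limma adjusted p = 0.0485). That share of 8.33% is close to the 6.46% of all tested genes that fell. The kinases Jak1 (-0.21) and Tyk2 (-0.12) and the feedback inhibitor Socs1 (0.08) did not pass, with limma adjusted p of 0.451, 0.455 and 0.771. Of 20 genes of nucleic acid sensing and interferon induction, 3 fell (15%, against 6.46% of all tested genes): the endosomal RNA receptor Tlr7 (-0.87 ± 0.16, limma adjusted p = 0.0267), its trafficking protein Unc93b1 (-0.49 ± 0.11, 0.0394) and the DNA exonuclease Trex1 (-0.43 ± 0.10, 0.042). The adaptor Mavs (0.05) and the factor Irf3 (-0.17) did not pass (0.764 and 0.32).

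A list of further interferon-stimulated genes, many of which also answer to interferon gamma, had 58 tested members, of which 22 fell (37.9%, against 6.46% of all tested genes) and 0 rose. Their median difference was -0.35, against 0.02 over all tested genes. In mice 1, 2 and 3 the median was -0.60, -0.33 and -0.27, the same order as for the 28 members. For 31 of the 58 the difference was most negative in mouse 1 and least in mouse 3 (53.4%, against 21.8% of all tested genes). In the F-test between mice 15 passed (25.9%, against 4.86%). Mouse 1 was the highest in both polyp and surrounding samples for 31 (53.4%, against 15.6%). The 5 that fell furthest were the chemokines Ccl5 (-2.77 ± 0.18, limma adjusted p = 0.00215), Cxcl10 (-1.51 ± 0.27, 0.023) and Cxcl9 (-1.33 ± 0.21, 0.0179), Phf11a (-1.13 ± 0.25, 0.0438) and the guanylate-binding protein gene Gbp3 (-1.08 ± 0.11, 0.00442). Ccl5 is also a product of T and NK cells. Which interferon, if any, lay behind the values of these 58 genes or of the 28 members was not tested. For Cxcl10 the difference was the smallest in mouse 1 (-0.66) and the largest in mouse 3 (-2.13), the opposite order to most of the 28 members, and Cxcl9, mainly a target of interferon gamma, followed the members' order, with -1.88, -1.40 and -0.71.

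Markers of several leukocytes moved with the polyp and with the mouse, and their part in the results above was not tested. Among all 9246 tested genes, 6.46% fell and 4.86% differed between mice, and 4.62% of all tested probes rose. Of 13 tested T cell markers, 12 fell, and their mean log2 level lay between 6.05 and 7.12 in polyp and between 7.21 and 8.70 in surrounding samples. Of 11 B cell markers 9 fell, with means of 5.40 to 5.78 against 6.88 to 7.68, and of 14 monocyte and macrophage markers 3 fell, with means of 8.15 to 9.81 against 9.10 to 9.96. Neutrophil markers went the other way, with 6 of 10 higher and means of 7.99 to 8.40 against 6.66 to 7.54. Of 8 NK cell markers 5 fell (means of 5.75 to 6.50 against 6.54 to 7.69), all 11 endothelial markers rose (8.09 to 8.46 against 7.38 to 7.58), 3 of 13 epithelial markers rose, 2 of 10 fibroblast markers fell, and 0 of 3 erythroid markers passed in limma. In the F-test between mice, 9 of 13 T cell and 9 of 14 macrophage markers passed. In surrounding samples mouse 1 exceeded mouse 3 by a median of 1.61 for T cell and 0.82 for macrophage markers, and in polyp samples by 1.07 and 1.68. For B cell markers the same difference was -0.69 in surrounding and 0.06 in polyp samples.

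Plasmacytoid dendritic cells, the chief makers of type I interferon, had 11 tested markers of 16 listed. Of the 11, 4 fell (36.4%, against 6.46% of all tested genes). They were Pacsin1 (-1.04 ± 0.09), Tlr7, Spib (-0.83 ± 0.15) and Bcl11a (-0.63 ± 0.10), with limma adjusted p from 0.00311 to 0.0267. The receptor Siglech differed by -0.13 ± 0.09 and the lineage factor Tcf4 by -0.07 ± 0.09, and neither passed (0.439 and 0.658). Ccr9 and Cd300c were detected on 0 arrays. The mean log2 level of this list was 6.50 to 6.72 in polyp and 6.95 to 7.22 in surrounding samples. Spib and Bcl11a are also genes of B cells, and these genes other than Tlr7 and Siglech were named after their values were seen. The median difference of this list was -0.16, -0.46 and -0.73 in mice 1, 2 and 3, the opposite order to that of the interferon response genes.

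**Figure D4:**
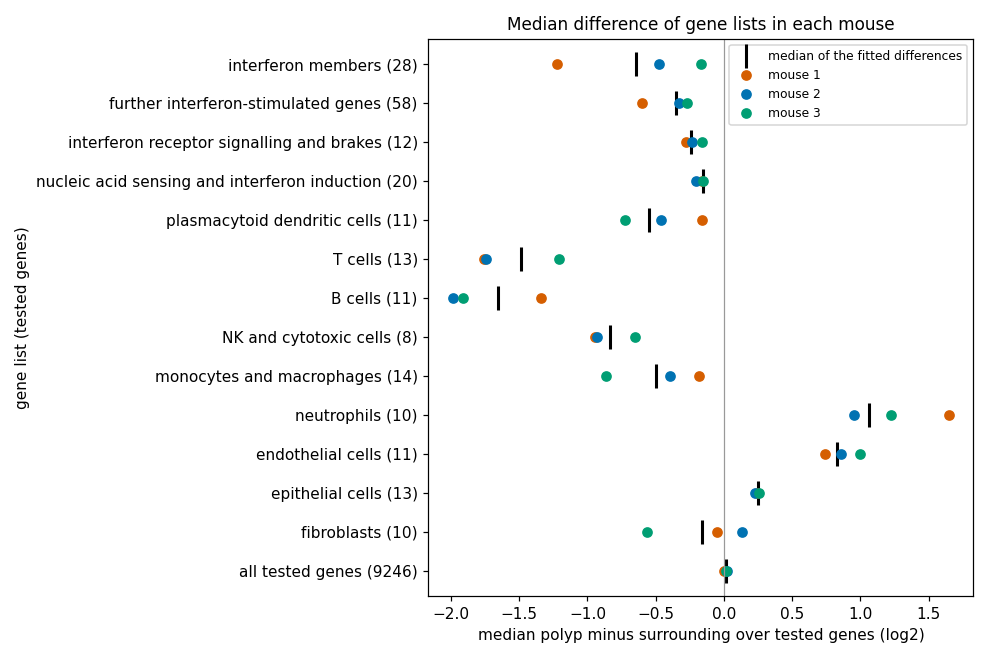
Median difference between polyp and surrounding (log2) over the tested genes of each list, with 1 coloured point per mouse and a black bar for the median of the fitted differences; the number of tested genes stands in brackets. The 3 mice lie furthest apart, at -1.22, -0.48 and -0.17, for the 28 interferon members, and lie close together for all tested genes.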

How the data were processed

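Total RNA of CD45-enriched cecal cells was labelled with biotin and hybridised to an Illumina mouse BeadChip, per the labels' protocols. Per the file headers, each array has 1 linear intensity and 1 detection p-value a probe in the deposited scanner table. The authors' second deposited table holds processed intensities of the same arrays. Quantile normalization of the scanner values without background subtraction gave the same numbers to within 0.005. Its column medians lay between 104.25 and 104.32. GenomeStudio and limma 3.14.4 are named, without their role, in the submitters' processing notes. A genome build is not given in the sources used here.

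In R 4.3.3 with limma 3.58.1, scanner intensities were corrected by normexp on the detection p-values (offset 16), quantile normalized and log2 transformed. Low offsets enlarge differences of dim probes. The test took the 13409 of 25697 probes detected (p-value under 0.05) on 3 or more arrays. The platform annotation named 23978 probes, 23962 of them found in RefSeq by gene identifier. The fit (lmFit, eBayes) had terms for mouse and tissue, with 2 residual and 4.04 prior degrees of freedom. It was run on simulated data with independent errors and an added difference equal in all mice. Differences that vary between mice, as seen here, were not simulated. The threshold was an adjusted p of 0.05. The design text pairs samples by mouse: deviations from group means correlated by 0.571, 0.564 and 0.614 within mice. The members and lists were chosen with earlier results of these data known. All members are named; from the other pathway lists, up to 5 genes that passed in each direction and listed receptor, kinase, factor and sensor genes, of which Tlr9, Tmem173 and Mb21d1 were not analysed here.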

Additional observations from a re-analysis of the deposited data

How the results depend on the processing

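All 28 tested members kept a difference below 0 in the authors' processed values, without background correction, under cyclic loess, median scaling and an offset of 50. They also did so without mouse 2 and without mouse 3. Without mouse 1, 24 did, and with probes of a gene averaged 27 did. A trended and robust prior, a model without mouse and the other filters on dim probes leave the difference of a probe unchanged, so that its sign could not change there. Both stricter filters left 24 members, and with no filter 30 of 33 were below 0. The count of members that changed, 4, became 20 with median scaling. There the fit gave all probes the same variance, so that every member had an SE of 0.18 whatever its own spread between pairs. Of the changed probes 407 of 1407 were higher in polyps there, against 620 of 1399 in the main fit. The count of members became 7 with a trended and robust prior, and 0 with no replicate block, that is, with mouse left out. It lay between 2 and 6 when a mouse was left out; all 4 were among the 6 without mouse 1, 2 without mouse 2 and 3 without mouse 3. Isg15 and Rsad2 passed in 13 of 14 alternatives, Bst2 in 11 and Ifit2 in 8. The 14 include both the authors' processed values and no background correction, which are nearly the same numbers and gave the same calls. Changed probes in all, 1399, numbered 183 with no replicate block and between 412 and 1927 when a mouse was left out. Members that differed between mice, 6, numbered 3 without background correction, in the authors' processed values and with probes averaged, 20 with median scaling, 0 with no filter (20 of 33 at an unadjusted p under 0.05) and between 2 and 11 when a mouse was left out. The median of the members lay between -0.83 and -0.33 when a mouse was left out. The cause of these changes was not tested beyond what each alternative alters. Probes near background, such as those of Mx1 and Rtp4, limit what can be read of dim members.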
